A study of Mus musculus with 8 samples.

Results

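The 10 integrin subunit genes measured here were Itga2b, Itgav, Itga5, Itga4, Itga2, Itgal, Itgb7, Itgb1, Itgb3 and Itgb2. They were taken by gene symbol from a table of 55359 genes and all 10 were found. RNA was sequenced from 8 libraries of murine peritoneal mast cells (PMCs), which are tissue-type mast cells grown from cells of the peritoneal cavity. The libraries comprised 3 female and 3 male cultures of primary WT PMCs, 1 library of the line PMC-306 and 1 library of the line PMC-303. All 8 were labelled with a wild-type genotype on the strain background C57BL/6x129/Sv and were left untreated beyond culture with IL-3 and SCF. The paper reports chromosome changes in both lines, and loss of Cdkn2a and Arf expression in both. The label therefore does not mean that the lines match the primary cultures genetically. The ages of the mice are not given in the labels. Both lines arose spontaneously in aged, neglected cultures, PMC-303 independently of PMC-306, and each was sequenced in a single library. The lines were kept in medium with less SCF and serum than the primary cultures, so that medium and transformation cannot be told apart in these libraries. The paper also grew PMC-306 with the primary amounts. It reports no effect on Cdkn2a/Arf or the mast cell proteases it measured, and less KIT on the surface. Integrin genes are not among those it names there. The comparisons asked how the integrin equipment of the transformed lines differed from that of primary WT PMCs, and whether it differed between the sexes.

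Integrins are cell surface receptors made of 1 α and 1 β subunit. They bind proteins of the extracellular matrix or of other cells on the outside, and the actin cytoskeleton through talin and kindlin on the inside. A subunit can have several partners: αIIb pairs with β3 (the platelet fibrinogen receptor), αv with β3, β1 and other β subunits (the vitronectin and fibronectin receptors), α5 and α2 with β1 (receptors of fibronectin and collagen), α4 with β1 or β7 (receptors of VCAM-1 and MAdCAM-1) and αL with β2 (LFA-1, the receptor of the ICAMs). In mast cells, β7 is known for its part in the homing of mast cell progenitors to the intestine, and αIIb, otherwise a marker of the megakaryocyte lineage, is known to be made by mast cells.

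The libraries held between 15918758 and 24180226 estimated counts, so that 3 counts correspond to between 0.123 and 0.187 CPM (the share of a gene in its library, as counts per 1000000 after scaling by the trimmed mean of M values, TMM). The 12 mast cell markers summed to between 55208 and 85921 CPM across the primary cultures, 45647 CPM in PMC-303 and, in PMC-306, 41787 CPM, and none was at 0 throughout. Of these markers 5 were lower in the lines by the test described below (Mcpt4, Tpsb2, Fcer1a, Kit and Il1rl1) and 0 higher, where 15.5% of all genes were lower and 18.3% higher. Of the 9 megakaryocyte or platelet markers 4 had at most 3 counts in every library, among them Pf4 and Ppbp, while Gp5, Gp1ba and Nfe2 were expressed, and the list summed to between 96.5 and 176.0 CPM across the primary cultures, 132 CPM in PMC-303 and, in PMC-306, 57.6 CPM. The 10 macrophage markers summed to between 7.44 and 68.8 CPM across the primary cultures, 7.16 CPM in PMC-303 and, in PMC-306, 441 CPM. Of the PMC-306 sum 426 CPM came from Adgre1 alone, and 5 of the 10 markers, among them C1qa, C1qb and Marco, had at most 3 counts in every library. The 8 T cell markers summed to at most 3.88 CPM in any library, the 6 neutrophil markers to at most 0.196 CPM, the 4 eosinophil markers to at most 2.45 CPM, the 10 fibroblast or mesothelium markers to at most 2.51 CPM (in PMC-303) and the 6 B cell markers to at most 21.4 CPM (in PMC-303, led by Ighm). In bulk RNA, fewer cells of a type and less RNA per cell cannot be told apart.

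Levels of different subunits were compared in TPM (transcripts per 1000000), which take transcript length into account. In primary WT PMCs the receptor repertoire was dominated by Itga2b, at 612 ± 107 TPM (SD, n = 6, range 466 to 772). It was followed by Itgb7 at 233 ± 69.7 TPM (range 176 to 366) and Itgb1 at 56.0 ± 7.47 TPM (range 43.7 to 62.8). The ranges of these 3 genes did not overlap with each other or with that of any other member. Itgav, at 19.2 ± 2.68 TPM, came next but its range overlapped with that of Itgb2 at 11.2 ± 5.29 TPM, which in turn overlapped with Itga5 at 5.99 ± 0.995 TPM, and Itga5 with Itgb3 at 3.48 ± 1.97 TPM. Itga4 (0.170 ± 0.0775 TPM), Itga2 (0.155 ± 0.160 TPM) and Itgal (0.0822 ± 0.0379 TPM) lay below every other member and were not separated from their neighbours in this order. Of the 9 neighbouring pairs in the order 5 overlapped. The lines had the same 3 leading genes in the same order. In PMC-306 Itgb2 (20.9 TPM) stood before Itgav (14.2 TPM), as it also did in female culture 1 (20.6 and 18.5 TPM). Itga4 (1.36 TPM) stood before Itgb3 (0.699 TPM) in PMC-306. In PMC-303 Itga5 (7.42 TPM) stood before Itgb2 (2.71 TPM), and Itga4 was last at 0 TPM.

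**Figure D1:**
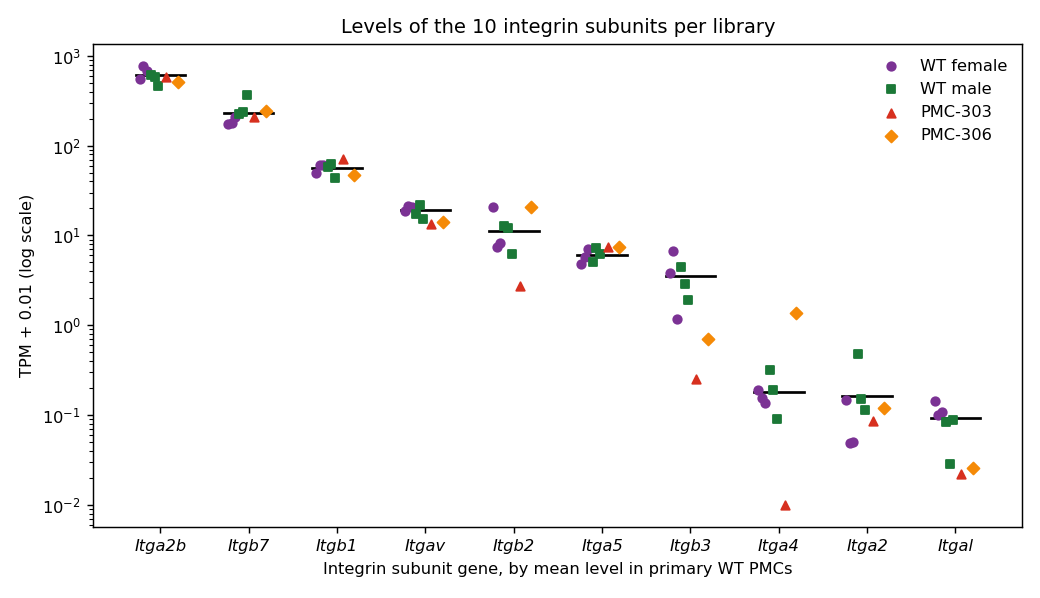
Level of each of the 10 integrin subunits in TPM + 0.01 on a log axis, 1 point for each library (circles, WT female; squares, WT male; triangle, PMC-303; diamond, PMC-306), with a bar at the mean of the 6 primary cultures. Itga2b, Itgb7 and Itgb1 lead in every library, and among the points of the lines that lie outside those of the primary cultures are both lines below at Itgb3, and PMC-303 (0 TPM) below and PMC-306 above at Itga4.

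Summed over the 10 genes, integrin RNA amounted to between 825 and 1055 TPM across the primary cultures, 882 TPM in PMC-303 and 845 TPM in PMC-306. The α subunits exceeded the β subunits in every library, with an α to β ratio of summed TPM between 1.17 and 3.13 across the primary cultures, 2.10 in PMC-303 and 1.68 in PMC-306. Itga2b alone made up between 51.5% and 73.2% of the sum across the primary cultures, 65.3% in PMC-303 and 60.0% in PMC-306. Together with the 16 other integrin subunit genes of the mouse that were counted, the 10 members accounted for between 95.4% and 97.7% of all integrin TPM across the primary cultures, 98.3% in PMC-303 and 95.6% in PMC-306.

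The levels of some known partners were far apart. Itga2b RNA was between 116 and 587 times as abundant, by TPM, as that of its partner Itgb3 across the primary cultures, and the ratio was 2359 in PMC-303 and 725 in PMC-306, both beyond the primary range. Itgav was nearer to Itgb3, with a ratio between 3.22 and 17.9 across the primary cultures. That ratio was 54.5 in PMC-303 and 20.3 in PMC-306. For Itgb7, the second most abundant subunit, both known α partners were near the bottom of the order. Itga4 lay between 0.0795 and 0.308 TPM across the primary cultures, and Itgae, which encodes αE, between 0.0357 and 0.329 TPM. Of the summed β subunit TPM, Itgb7 made up between 70.2% and 87.6% across the primary cultures and Itgb1 between 10.5% and 23.6%. In PMC-303 these shares were 73.9% and 25.1%, and in PMC-306 78.1% and 15.05%. RNA levels were measured here, and the amount of receptor on the cell surface was not analysed here.

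Promoter sequences were at hand for 7 of the 10 members (RefSeq, build GRCm38.p6), and those of Itga2b and Itgb7, which led the order, of Itgav, which was lower in both lines, and of Itga4, which moved in opposite directions in the lines, are shown as the 150 bases before the start of the gene, 5′ to 3′ on the strand of the gene. Capitals mark the letters AGGAAG and, alternatively, CGGAAG (cores of many ETS factor sites), as well as the cores of GATA factor sites, which were searched as AGATAA, likewise as AGATAG, further as TGATAA and finally as TGATAG. Both strands of the 250 bases before the start were searched. No ETS match overlapped a GATA match in the sequences printed.
Itga2b, chr11:102469884-102470033, minus strand: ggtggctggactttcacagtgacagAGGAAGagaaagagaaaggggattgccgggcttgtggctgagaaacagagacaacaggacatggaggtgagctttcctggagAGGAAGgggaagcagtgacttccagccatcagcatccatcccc
Itgb7, chr15:102231936-102232085, minus strand: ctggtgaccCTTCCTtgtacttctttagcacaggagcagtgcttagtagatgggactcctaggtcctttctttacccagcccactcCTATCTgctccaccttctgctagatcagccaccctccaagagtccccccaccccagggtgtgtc
Itgav, chr2:83724247-83724396, plus strand: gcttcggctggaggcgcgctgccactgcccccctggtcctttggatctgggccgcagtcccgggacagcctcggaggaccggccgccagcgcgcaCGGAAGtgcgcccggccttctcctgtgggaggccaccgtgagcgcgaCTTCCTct
Itga4, chr2:79255276-79255425, plus strand: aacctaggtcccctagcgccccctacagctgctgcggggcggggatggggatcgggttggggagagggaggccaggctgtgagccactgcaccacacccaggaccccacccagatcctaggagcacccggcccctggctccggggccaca
The ETS letters occurred 2 times in Itga2b, 2 times in Itgav, 2 times in Itgb1 and 1 time in Itgb7, and were not found in the windows of Itga5, Itga4 and Itga2. Of all 32851 promoters 39.2% held them. The GATA letters occurred 1 time in Itgb7 and in no other of the 7 windows, against 26.5% of all promoters. The motifs were chosen after the levels were seen, and a match describes the letters only.

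To compare the transformed lines with primary WT PMCs, PMC-303 and PMC-306 were taken as 2 samples of a transformed line and tested against the 6 primary cultures with limma on log2(CPM + 0.1), with Benjamini-Hochberg adjustment over all 14525 genes tested. Of the 10 members 9 passed the filter on low counts, all except Itgal. Itgb3 and Itgav were lower in the lines, 0 members were higher, and 7 did not pass the test. Without adjustment, Itga2b (also lower) was the only further member under 0.05, and 0 were higher. The share of all genes under 0.05 without adjustment was not counted, and cannot be smaller than that of the adjusted calls given next. Over all genes tested 18.3% were called higher and 15.5% lower, so that 2 lower calls among 9 were close to the share of the table. The median log2 difference of the 9 members was −0.18, beside −0.01 over all genes tested. A test of a single line can take its spread from the primary cultures only, since the line is 1 library, so a single line was described without a test, and a gene was counted when the line was at least 2-fold from the primary mean and outside the range of the 6 primary cultures. By this rule PMC-303 had 0 members higher and 3 lower (Itga4, Itgb3 and Itgb2), where 10.4% of all genes at 1 CPM or more were higher and 8.09% lower. PMC-306 had 1 member higher (Itga4) and 1 lower (Itgb3), where 10.2% of genes were higher and 9.19% lower. When each primary culture was set against the other 5 by the same rule, between 1.99% and 4.24% of genes were past it.

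**Figure D2:**
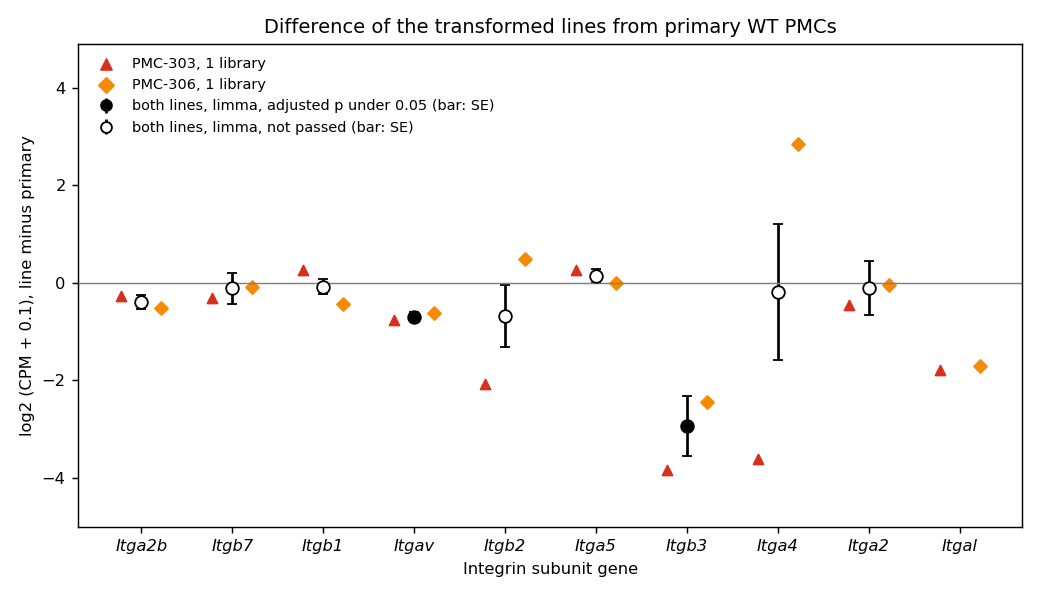
Log2 difference of CPM + 0.1 between the lines and the primary WT PMCs for the 10 integrin subunits, in the order of their level. Black circles give the limma estimate for both lines with its SE (filled, adjusted p under 0.05; open, not passed; none for Itgal, which was not tested), triangles PMC-303 and diamonds PMC-306, each against the mean of the 6 primary cultures. The filled circles are Itgav at −0.69 and Itgb3 at −2.94, and the lines lie on opposite sides of 0 at Itga4, Itgb2 and Itgb1.

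Itgb3, the β subunit shared by the platelet fibrinogen receptor and the vitronectin receptor, showed the largest difference among the members called. It lies on chromosome 11 (GRCm39, 104498826 to 104561302, plus strand). In female cultures 1 to 3 it was at 21.96, 36.7 and 6.17 CPM, in male cultures 1 to 3 at 23.9, 15.5 and 13.1 CPM, in PMC-303 at 1.28 CPM and in PMC-306 at 3.54 CPM. Both lines were below the lowest primary culture, although the primary cultures themselves spanned 5.94-fold. The mean of the primary cultures, 19.6 ± 10.5 CPM (SD, n = 6), was 15.3 times the level in PMC-303 and 5.53 times that in PMC-306. By limma Itgb3 was lower by 2.94 ± 0.62 on the log2 scale (a log2 difference of −2.94, SE 0.62, adjusted p = 0.00763). The call was lost without PMC-303 (−2.24, adjusted p = 0.066) and against the female cultures alone (−2.94, adjusted p = 0.0735). The share of Itgb3 in the summed β subunit TPM was between 0.416% and 2.61% across the primary cultures, 0.0858% in PMC-303 and 0.222% in PMC-306.

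Itgav encodes αv, the α subunit of the vitronectin receptors, and lies on chromosome 2 (GRCm39, 83554403 to 83637260, plus strand). It was at 108, 125 and 113 CPM in the female cultures, at 97.8, 122 and 115 CPM in the male cultures, at 66.7 CPM in PMC-303 and at 73.8 CPM in PMC-306. Here the primary cultures were close to each other, with a range of 1.28-fold, and both lines lay below all 6. The lines were at 58.8% and 65.0% of the primary mean of 113 ± 9.90 CPM (SD, n = 6), less than the 2-fold that the rule for single lines asks for. By limma the log2 difference was −0.69 (SE 0.10, adjusted p = 0.00125). In the deposited TPM it was −0.46 (adjusted p = 0.0718), and the call was not made.

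Itga2b encodes αIIb and lies on chromosome 11 (GRCm39, 102341397 to 102360955, minus strand). Its primary cultures lay between 1407 and 1960 CPM with a median of 1492 CPM, PMC-303 at 1294 CPM and PMC-306 at 1097 CPM. In CPM both lines were below the lowest primary culture, at 82.5% and 69.9% of the primary mean. In the deposited TPM both were inside the primary range of 466 to 772, at 576 in PMC-303 and 507 in PMC-306. There the log2 difference was −0.16 (limma, adjusted p = 0.58). The log2 difference in CPM of −0.39 (SE 0.15) did not pass limma's test (adjusted p = 0.0718), and passed it with upper quartile scaling alone (−0.55, adjusted p = 0.02), a scaling that lowered the median of all genes by 0.162. Of the megakaryocyte or platelet markers measured beside it, Gp5 lay between 36.03 and 83.8 CPM across the primary cultures, at 61.5 CPM in PMC-303 and at 1.87 CPM in PMC-306, and none of the 5 that were tested in the comparison of the lines passed. The part of such cells in the Itga2b signal was not tested beyond this, and Pf4 and Ppbp had at most 2 counts in every library.

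The β1 and β7 subunits and their partners made up the second group. Itgb1, the β subunit of most matrix receptors (chromosome 8, GRCm39, 129411876 to 129460618), varied least of all members among the primary cultures, from 183 to 215 CPM with a median of 204 CPM. PMC-303, at 242 CPM, lay above this range and PMC-306, at 151 CPM, below it. With the lines on opposite sides, limma gave a log2 difference of −0.08 (SE 0.15, adjusted p = 0.715). Without PMC-303 the remaining line was lower (−0.42, adjusted p = 0.0175), where it is assumed to vary like the primary cultures. The 698 genes of chromosome 8 that were at 1 CPM or more had a median log2 difference of 0.22 in PMC-303, against 0.26 for Itgb1, and 699 such genes had one of 0.04 in PMC-306, against −0.43 for Itgb1. The paper reports an extra copy of this chromosome in most of the PMC-303 cells examined, and did not observe it in PMC-306. The part of the chromosome in the level of Itgb1 was not tested.

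Itgb7 lay between 345 and 882 CPM across the primary cultures with a median of 419 CPM, at 388 CPM in PMC-303 and at 451 CPM in PMC-306. Both lines were inside the primary range and the log2 difference was −0.11 (SE 0.32, adjusted p = 0.821). The highest value belonged to male culture 3, and the next highest was 456 CPM. The sign of the Itgb7 difference turned without male culture 3, to 0.08 (adjusted p = 0.677).

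Itga4, the α4 subunit of the VCAM-1 and MAdCAM-1 receptors (chromosome 2, GRCm39, 79085660 to 79163467), was at 1.38, 0.659 and 0.791 CPM in the female cultures and at 2.45, 1.12 and 0.367 CPM in the male cultures. PMC-306 stood at 8.69 CPM from 177 counts, 7.71 times the primary mean and above all 6 primary cultures. PMC-303 had 0 counts, which made Itga4 at least 9.13-fold lower than the primary mean when 3 counts are allowed for in the line. Itga4 was 1 of 62 genes that were past the rule for single lines in opposite directions, 0.466% of the 13304 genes that could be compared. For PMC-303, at 0 counts, Itga4 entered the rule only through its primary mean of 1.13 CPM, just above the limit of 1 CPM. The limma difference for both lines, −0.18 (SE 1.40, adjusted p = 0.933), thus averaged a fall and a rise, and was 3.05 without PMC-303 (adjusted p = 0.0242) and −3.41 without PMC-306 (adjusted p = 0.0193). In each of these fits the line is 1 library and the spread comes from the primary cultures alone, and the size of the second value is set by the offset of 0.1 CPM, since PMC-303 had 0 counts. Itga4 overlaps Cerkl, a gene on the opposite strand. Cerkl had 1 count in PMC-303, 107 in PMC-306 and between 15 and 103 across the primary cultures, that is 5.25 CPM in PMC-306 and between 0.787 and 4.52 CPM across the primary cultures. The library kit keeps the strand, but whether the counting used it is not given in the sources used here, and the sharing of reads between the genes was not tested.

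Itga5, the fibronectin receptor subunit α5, lay between 14.2 and 20.7 CPM across the primary cultures with a median of 16.1 CPM. PMC-303 at 19.9 CPM and PMC-306 at 16.6 CPM were inside this range, and the log2 difference of 0.14 (SE 0.15, adjusted p = 0.508) did not pass limma's test. Itga2, the collagen receptor subunit α2, was close to the limit of detection, between 0.264 and 0.971 CPM across the primary cultures, 0.494 CPM in PMC-303 and, in PMC-306, 0.687 CPM, the last from 14 counts. Its log2 difference was −0.10 (SE 0.55, adjusted p = 0.909), and a difference of the size of its SE could not have been detected at this depth. Itga2 overlaps Mocs2 on the opposite strand, which had between 18.7 and 24.2 CPM in all 8 libraries.

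The leukocyte integrins formed the third group. Itgb2, the β subunit of LFA-1 and Mac-1 (chromosome 10, GRCm39, 77366086 to 77401542), was at 56.7, 18.5 and 19.2 CPM in the female cultures, at 32.7, 32.6 and 21.7 CPM in the male cultures, at 7.08 CPM in PMC-303 and at 42.3 CPM in PMC-306. PMC-303 was below all 6 primary cultures, at 23.4% of their mean, and PMC-306 was within their range. For both lines limma gave −0.68 (SE 0.64, adjusted p = 0.449), and without PMC-306 it gave −1.96 (adjusted p = 0.0334), a fit with 1 library of a line in which the spread comes from the primary cultures alone. Itgal, which encodes the αL partner, was near the floor throughout, with between 1 and 15 counts across the primary cultures, 1 count in PMC-303 and 1 count in PMC-306. The ratio of PMC-303 to the pooled primary cultures was 0.104 (95% exact interval 0.00257 to 0.606) and that of PMC-306 was 0.124 (0.00306 to 0.723), intervals that cover counting error only. Itgam, the αM partner of β2, was at 0 counts in PMC-303, between 0.0819 and 0.659 CPM across the primary cultures and at 4.66 CPM in PMC-306. In that line Adgre1, the macrophage marker F4/80, was also at its highest, 426 CPM against 3.37 to 46.4 CPM across the primary cultures, whereas the other 9 macrophage markers summed to 15.3 CPM, inside the primary range of 3.48 to 22.4 CPM. The part of macrophages in the Itgb2, Itgam and Itga4 values of PMC-306 was not tested beyond these levels.

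**Figure D3:**
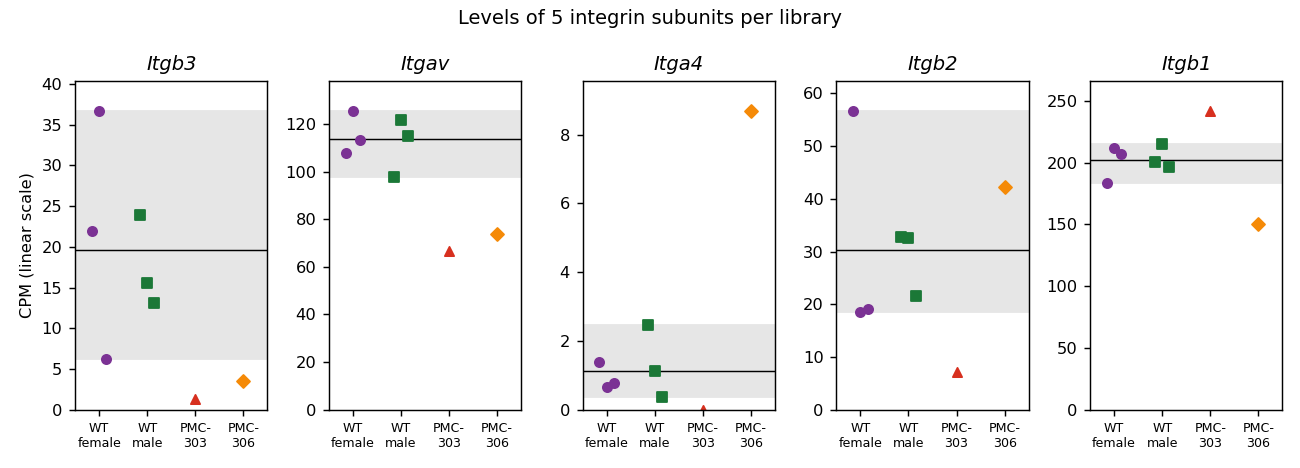
CPM on linear axes from 0 for Itgb3, Itgav, Itga4, Itgb2 and Itgb1, 1 point for each library, with a grey band over the range and a line at the mean of the 6 primary WT PMC cultures. Both lines lie below the band for Itgb3 and Itgav, PMC-303 lies below it for Itga4 and Itgb2 and above it for Itgb1, and PMC-306 lies above it for Itga4, inside it for Itgb2 and below it for Itgb1.

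Female and male primary WT PMCs were compared in the same way, with 3 cultures each. Of the 9 members tested 0 were called by limma, and over all 13754 genes 6 were called, 0.0436% of them. At an unadjusted p under 0.05, 459 genes and 1 member, Itgb7, were counted. Itgb7 was at 350, 345 and 395 CPM in the female cultures and at 442, 456 and 882 CPM in the male cultures. All 3 male cultures were above all 3 female cultures, with a log2 difference, female minus male, of −0.63 (SE 0.26), which did not pass after adjustment (limma, adjusted p = 1.00). Itga2 had a difference of −0.99 (SE 0.49) at levels below 1 CPM, and the other 7 differences lay between −0.18 and 0.18.

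At the level of transcripts, 7 members were read mainly from 1 protein-coding transcript in every library. The main transcript took between 89.7% and 92.9% of the counts of Itga2b, between 96.2% and 97.1% of those of Itgb7, between 97.5% and 99.9% of those of Itgb1, between 95.8% and 97.2% of those of Itgav, between 93.5% and 97.0% of those of Itga5 and between 93.3% and 100% of those of Itgb2. Itgb3 had a single transcript with counts. These shares differed by at most a few percentage points between the lines and the primary cultures. A transcript of Itgb1 annotated as a target of nonsense-mediated decay had 0 counts in PMC-303, 55.6 in PMC-306 and between 19.2 and 90.1 across the primary cultures, and was chosen after its values were seen. The main transcript of Itga4 took 91.1% of its 177 counts in PMC-306 and between 57.1% and 95.5% of the 7 to 48 counts across the primary cultures. Itga2 and Itgal, with at most 21 counts in any library, were not divided.

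Most of the 16 integrin subunits outside the 10 members were near silent, with Itga6 and Itga9 as exceptions. Of the 16, 6 passed the filter on low counts, 0 were called higher and 0 lower by limma, where 18.3% and 15.5% of all genes were. Among the alternatives with both lines, 1 subunit was called higher against the female cultures alone and 1 without male culture 3, not necessarily the same. Against the female cultures alone 1 was also called lower. The most abundant was Itga6, the α6 laminin receptor subunit. In TPM it lay between 16.3 and 42.2 across the primary cultures, a range that overlapped and reached above that of the member Itgav (15.1 to 21.8). Itga6 was at 102, 114 and 59.5 CPM in the female cultures, at 125, 137 and 67.7 CPM in the male cultures, at 19.2 CPM in PMC-303 and at 91.6 CPM in PMC-306. PMC-303 was thus below all 6 primary cultures at 19.0% of their mean, while PMC-306 was inside their range, and the test of both lines was not passed (−1.20, SE 0.54, adjusted p = 0.124). Itga9, a tenascin and VCAM-1 receptor subunit, was at 9.003, 16.3 and 12.1 CPM in the female cultures, at 11.4, 5.41 and 65.2 CPM in the male cultures, at 32.4 CPM in PMC-303 and at 26.1 CPM in PMC-306. Both lines were above 5 of the 6 primary cultures and below male culture 3, and the difference for both lines was not past the test (1.06, SE 0.76, adjusted p = 0.32). Without adjustment none of the 6 fell under 0.05 either, and the lowest p of limma was that of Itga6 (unadjusted p = 0.0566). The share of all genes under 0.05 without adjustment was not counted.

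Of 49 genes for proteins that link integrins to actin or carry their signals, 43 were tested, 5 were higher in the lines, 10 were lower and 28 did not pass. The rises were Skap1 (1.96, SE 0.23, adjusted p = 0.000498), an adaptor of inside-out activation, Cd82 (1.27, SE 0.25, adjusted p = 0.0059), a tetraspanin that associates with integrins, Cd47 (0.82, SE 0.14, adjusted p = 0.00258), a partner of β3 integrins, Ilk (0.77, SE 0.08, adjusted p = 0.00023), the integrin-linked kinase, and Actn4 (0.61, SE 0.11, adjusted p = 0.00352), an actin crosslinker. The largest falls were those of Tns1 (−2.88, SE 0.87, adjusted p = 0.0326), a tensin, Cd9 (−2.30, SE 0.41, adjusted p = 0.00334), a tetraspanin, Parvb (−1.60, SE 0.40, adjusted p = 0.0145), a partner of Ilk, Tns3 (−1.29, SE 0.20, adjusted p = 0.0019) and Skap2 (−1.06, SE 0.09, adjusted p = 0.000136). All values are log2 differences of CPM + 0.1, lines minus primary, by limma. The related adaptors Skap1 and Skap2 differed in opposite directions. Skap1 rose from between 16.7 and 32.0 CPM across the primary cultures to 109 CPM in PMC-303 and, in PMC-306, 84.8 CPM. Skap2 fell from between 68.6 and 88.4 CPM to 36.6 and 38.1 CPM. Among the other falls were Syk (−0.63), Ptk2b (−0.81) and Fermt3 (−0.28), which encodes the kindlin of blood cells. Tln1, the main talin of these cells, was at 1996 CPM on average across the primary cultures and did not pass (−0.33, SE 0.14, adjusted p = 0.106). The list's median difference was −0.07, beside −0.01 over all genes tested, and its shares were 5 of 43 higher and 10 of 43 lower, beside 18.3% and 15.5% of all genes. The lower calls became 6 in the deposited TPM, beside 4 higher, 6 against the female cultures alone, beside 6 higher, and 5 against the male cultures alone, beside 5 higher.

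**Figure D4:**
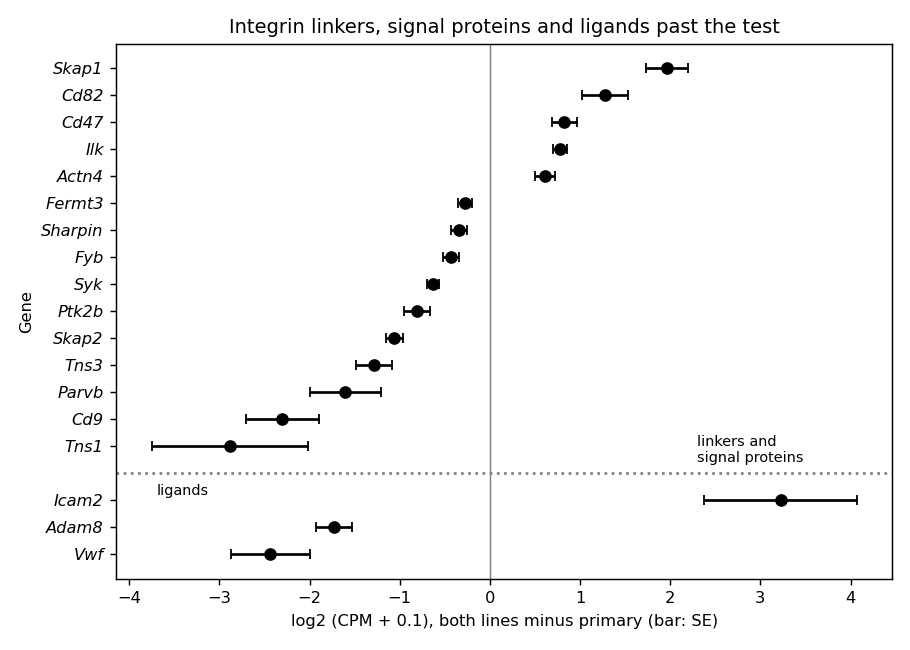
Log2 difference of CPM + 0.1, both lines minus primary WT PMCs, with its SE, for the genes with a limma adjusted p under 0.05 among the integrin linkers and signal proteins (above the dotted line) and among the integrin ligands (below it). Of the linkers and signal proteins 5 lie right of 0, from Actn4 at 0.61 to Skap1 at 1.96, and 10 left of it, from Fermt3 at −0.28 to Tns1 at −2.88.

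Of 34 genes for integrin ligands 11 were tested, 1 was higher, 2 were lower and 8 did not pass, where 18.3% of all genes were higher and 15.5% lower. Icam2, a ligand of LFA-1, had a log2 difference of 3.22 (SE 0.85, adjusted p = 0.0193), from between 0.0878 and 1.102 CPM across the primary cultures to 1.77 CPM in PMC-303 and, in PMC-306, 10.6 CPM. The gene was not called without PMC-306 or against the female or the male cultures alone, and was not tested with a filter of 10 CPM. Vwf, the von Willebrand factor, which αIIbβ3 and αvβ3 bind, fell by 2.44 on the log2 scale (SE 0.44, adjusted p = 0.00366), from between 112 and 240 CPM to 62.5 CPM in PMC-303 and, in PMC-306, 17.8 CPM. Adam8, a cell surface protease with a disintegrin domain, fell by 1.73 (SE 0.20, adjusted p = 0.000412), from between 214 and 345 CPM to 76.0 and 92.9 CPM. The list's median difference was 0.09, beside −0.01 over all genes tested. Fn1 and Vcam1 had at most 0.158 CPM in any library, and Madcam1 had 0 counts in all 8, which allows up to 0.187 CPM in the shallowest library.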

How the data were processed

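Total RNA of 8 cultures was measured with a stranded kit. Per the labels and the study's methods, reads were trimmed by Trim Galore 0.6.7, aligned by STAR 2.7.9a (GRCm39) and quantified by Salmon 1.5.2. Deposited were estimated counts of genes and transcripts, without normalization, and gene TPM, which the authors scaled for length and depth. The unit of the deposited tables was recorded as other, not as a count, because a spreadsheet had rewritten 3.37% of gene count, 3.22% of transcript count and 21.8% of TPM cells. These cells were restored. Gene counts were then within 0.2 of their transcript sums for 99.7% of values, each gene in each library being 1 value (largest difference 1.53). TPM columns summed to between 999651 and 999890. In TPM cells rewritten with added points, the decimal point was placed to fit the counts where the gene had enough of them. In 9240 of these cells the fit gave a place other than before 6 decimals. The restored TPM are therefore not independent of the counts.

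Counts were scaled to CPM by TMM. Both lines were tested against the primary cultures, and females against males, with limma 3.58.1 in R 4.3.3 on log2(CPM + 0.1), the variance following a trend with the mean, two-sided, for genes with about 10 counts in at least 2 libraries (3 for sexes) and 15 in total, at a threshold of 0.05. Single lines were set beside the primary range. No pair of primary libraries was a duplicate (chi-square per degree of freedom 20.6 to 68.1). The labels number biological replicates, and the spread between them is that of cultures. Alternatives were other scalings, offsets, filters, TPM, subsets of cultures and a replicate block. Samples with the same number did not deviate together throughout (correlations 0.454, −0.202 and 0.31). With 3 cultures of each sex this cannot exclude pairing, and the numbers were used only in the replicate block.

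The members, gene lists and rules were chosen with earlier results of these data known. Named were all 10 members, other integrin subunits past the test, the 5 largest rises and falls of linkers and signal proteins and the 3 largest of ligands; Itga6, Itga9, Itgae, Itgam, Syk, Ptk2b, Fermt3, Tln1, Fn1, Vcam1 and Madcam1 were named after their values were seen. The values of 1 marker gene are not reported here. Coordinates are from GENCODE M39 on GRCm39 (98.9% of genes found). Figures and summaries were made in Python 3.11.15 (scipy 1.17.1, pandas 2.3.3, matplotlib 3.10.9).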

Additional observations from a re-analysis of the deposited data

Results flagged for a closer look

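Among the 6 primary cultures, Itgb7 in male culture 3 stood apart at 882 CPM, with the next highest culture at 456 CPM, a gap of 0.793 of the whole range. Itgb2 in female culture 1 stood apart at 56.7 CPM, with the next highest at 32.7 CPM, a gap of 0.627 of the range. About 1 in 20 groups of 6 is marked in this way by chance, and 10 genes were looked at. Itga4 differed from the primary mean in opposite directions in the lines. It was higher by 2.84 on the log2 scale in PMC-306 and, with 0 counts, at least 9.13-fold lower in PMC-303, and no test of this contrast was made, each line being 1 library.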

How the results depend on the processing

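Itgav kept its call in 18 of 19 alternatives and Itgb3 in 17 of 19, with the exceptions given above, and both were lower in all. The number of genes called for both lines, 4913, was 2159 against the female cultures alone and 3027 against the male cultures alone. It was 3352 in the deposited TPM, and between 4225 and 4657 when single primary cultures were left out. The number of members called, 2, was 1 in the deposited TPM, 1 against the female cultures alone, and between 2 and 4 when single libraries were left out (3 without PMC-303 and 4 without PMC-306). With a filter of 10 CPM, PMC-303 had 1249 genes past the rule for single lines instead of 2408. PMC-306 had 1375 instead of 2535. Members past the rule then numbered 2 instead of 3 in PMC-303 and 1 instead of 2 in PMC-306. In PMC-303 they also numbered 2 in the deposited TPM, beside 2292 genes, and 2 without male culture 1, beside 2448 genes. The 6 genes called between sexes became 5 with the replicate block, with 0 members, and lay between 1 and 6 without single cultures (1 without male culture 1, 1 without male culture 2 and 2 without male culture 3). Of members not called, the sign turned as follows, in log2 differences. Itga5 was −0.025 with upper quartile scaling. Itga4 was 0.61 with an offset of 1 CPM, 0.51 with 0.5 CPM and 0.55 in TPM, and ranged from −3.41 (without PMC-306) to 3.05 (without PMC-303) when single libraries were left out, with 0.07 without male culture 1. Itga2 was 0.39 against the female cultures alone and ranged from −0.30 to 0.10, above 0 without PMC-303, female culture 1, male culture 1 or male culture 2. Itgb7 was 0.00080 with total counts, 0.010 in TPM and 0.21 against the female cultures alone, and ranged from −0.22 to 0.084 (without male culture 3). Itgb1 was 0.028 with total counts and 0.068 in TPM, and ranged from −0.42 (without PMC-303) to 0.26 (without PMC-306). Itgb2 ranged from −1.96 (without PMC-306) to 0.60 (without PMC-303). Beside TMM, the median of all genes tested shifted by 0.107 with total counts, by 0.138 in TPM and by −0.162 with upper quartile scaling. The causes were not tested. Each line is 1 library, so that spread within a line is unknown, and members under 1 CPM could not show moderate differences at this depth.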
